A study of Mus musculus with 6 samples.

Results

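HOX genes encode homeodomain transcription factors that lie side by side in 4 chromosomal clusters, HOXA, HOXB, HOXC and HOXD. The mouse genes were taken as all symbols made of Hox, a cluster letter and a paralog number. The RefSeq gene table lists 39 of them, and 38 of these had a row in the table of 26532 genes: 11 of HOXA, 9 of HOXB, 9 of HOXC and 9 of HOXD. Hoxb1 was not analysed here. The RNA came from fibroblasts cultured from embryos of the mouse (MEFs), which the labels also call mesenchymal stem cells. In 3 libraries the cells were labelled WT and had received an adenovirus with green fluorescent protein (AdGFP, called GFP here), and in 3 libraries they were labelled ORAI2 Overexpression and had received an adenovirus with ORAI2 (AdORAI2, called ORAI2 here), a plasma membrane protein that forms channels for calcium entry after store release. Both groups carry an adenovirus and both are labelled as undergoing osteogenic differentiation. The sources used here do not give embryo age, strain, the body region the cells came from, the time in culture or any BMP9 treatment of these libraries. They also do not say whether libraries of a group were separate cultures, so the p-values reflect only how far these samples vary, and that variation may be technical.

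Genes of one paralog number are the most alike in sequence across the clusters, and the order of the genes along a cluster matches the order of their expression domains along the embryo. Low numbers (anterior genes) act in the hindbrain and neck, and high numbers (posterior genes) in the lower trunk, the genital region and the far end of the limbs. Posterior HOXA and HOXD genes pattern the limb from the upper arm to the digits, and cultured fibroblasts are known to keep a HOX pattern that records where in the body they came from.

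Total counts lay between 18526884 and 18844436 per library. For Orai2 the GFP libraries held 994, 914 and 909 counts and the ORAI2 libraries 67882, 53034 and 45140, as the labels say. Of the fibroblast markers, 11 of 13 had a mean of at least 1 CPM (counts scaled to the library total), while Thy1 and Fap did not, and the summed level of the 13 was 8142 to 8721 CPM in GFP and 6438 to 6939 CPM in ORAI2 libraries. Of 5 osteoblast markers, Runx2 (71.32 CPM in GFP and 66.68 in ORAI2) and Spp1 (609.77 and 544.85) were above this level and Sp7, Alpl and Bglap below it, with a sum of 640.9 to 761.6 CPM in GFP and 552.7 to 672.5 CPM in ORAI2 libraries. Summed macrophage markers were at 13.24 to 15.62 CPM in GFP and 5.281 to 7.165 CPM in ORAI2 libraries. Endothelial markers were at 6.421 to 8.879 and 16.31 to 17.54 CPM, and neural markers at 131.7 to 143.9 and 163.3 to 174.4 CPM. Epithelial markers were at 2.798 to 3.743 and 4.21 to 5.12 CPM, mainly Krt18 (2.48 and 2.12 CPM) and Grhl2 (0.50 and 2.37 CPM), while Epcam had no count. The endothelial sum was mainly Kdr (3.10 and 6.24 CPM) and Vwf (3.69 and 10.20 CPM), with Pecam1, Cdh5 and Tek near 0. Most of the macrophage sum was Mpeg1 (11.92 and 3.62 CPM), with Ptprc and Csf1r near 0, and most of the neural sum was Nes (123.41 and 154.20 CPM), with Tubb3 at 10.34 and 8.53 CPM. Their part in the results below was not tested.

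The HOX genes of these cells were those of HOXA and HOXD. A gene was taken as expressed when it had at least 1 CPM in all 3 libraries of either group. By this measure 20 of the 38 genes were expressed: 9 of 11 in HOXA, 8 of 9 in HOXD, 2 of 9 in HOXB and 1 of 9 in HOXC. Summed over its genes, HOXD stood at 316.6 ± 10.5 CPM in the GFP libraries and HOXA at 158.1 ± 8.13 CPM, against 4.826 ± 0.597 CPM for HOXB and 2.815 ± 0.389 CPM for HOXC (SD, n = 3). HOXD thus held 65.6% ± 0.308 of the summed HOX CPM in the GFP libraries, HOXA 32.8% ± 0.453, HOXB 1% ± 0.158 and HOXC 0.584% ± 0.0807 (SD, n = 3). Such sums weight long and abundant genes most, and in bulk RNA fewer cells of a type and less RNA per cell cannot be told apart.

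**Figure D1:**
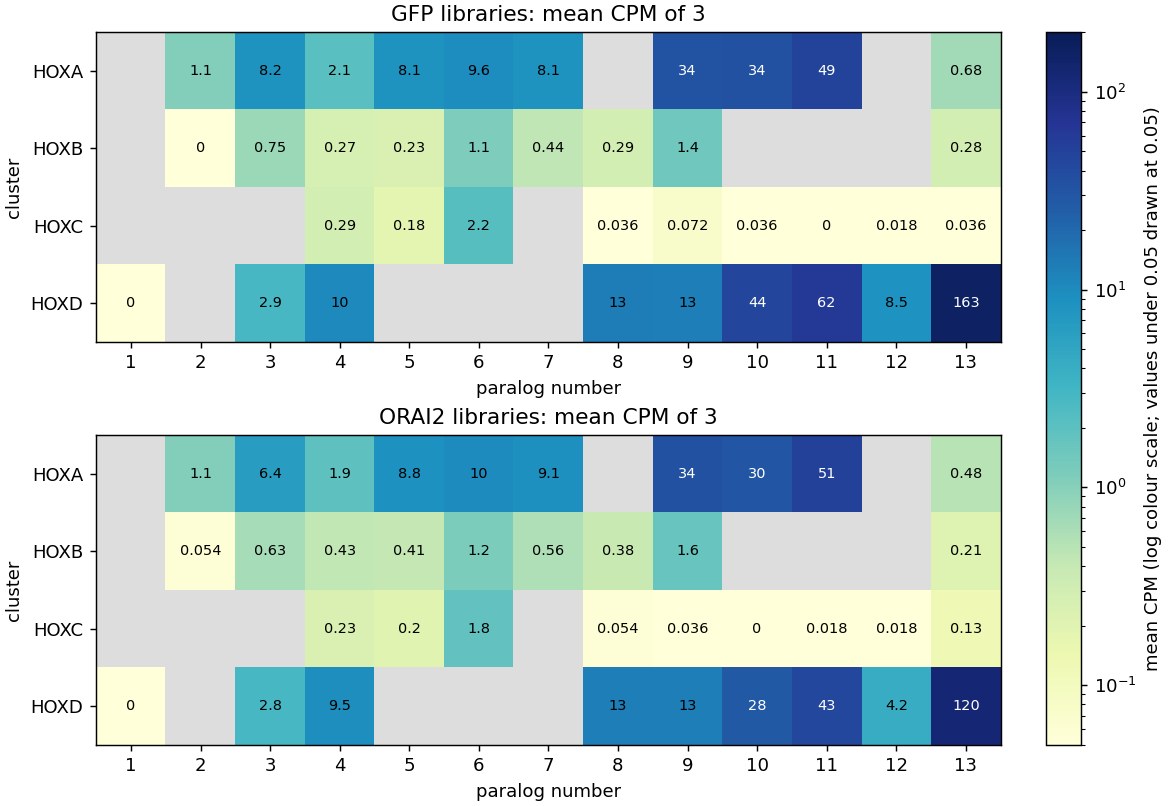
Mean CPM of each HOX gene in the 3 GFP libraries (top) and the 3 ORAI2 libraries (bottom), by cluster (rows) and paralog number (columns), on a log colour scale; grey cells have no gene or no value shown. The dark cells lie in HOXA and HOXD, with Hoxd13 highest at 162.8 CPM in GFP and 119.7 CPM in ORAI2, and the HOXC row is nearly empty except for Hoxc6.

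Hoxd13, which patterns the digits and the genital region, was the most abundant HOX gene. Per kilobase of its longest annotated coding transcript it stood at 65.6 ± 0.878 CPM per kb in the GFP libraries, next to Hoxd11 at 55.5 ± 3.78, Hoxd10 at 24.2 ± 2.70, Hoxa11 at 21.4 ± 0.497 and Hoxa10 at 13.4 ± 1.20 CPM per kb (SD, n = 3). Hoxd10 and Hoxa11 are neighbours in this order whose values lay within their spread. The order was not the same on the authors' deposited TPM scale, where Hoxd13 ranked 1 and Hoxa11 ranked 2 of the HOX genes in each of the 6 columns, while Hoxd11 ranked between 4 and 6. The per kb level of Hoxd11 rests on a transcript of 1111 bases, against 2483 for Hoxd13 and 2287 for Hoxa11. Next on the per kb scale came Hoxa6, Hoxa9, Hoxd9 and Hoxd8, with means of 11, 10.4, 6.05 and 5.1 CPM per kb in the GFP libraries. Hoxa6 was scaled by a transcript of 874 bases and ranked between 9 and 11 on the TPM scale.

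Paralogs of one number were not expressed alike. Hoxa13, the closest relative of Hoxd13 and its partner in digit and genital development, had GFP counts of 10, 13 and 15 and ORAI2 counts of 13, 8 and 6, against 3034, 3090 and 3015 and then 2075, 2247 and 2353 counts of Hoxd13. Hoxb13 had at most 7 counts in a library and Hoxc13 at most 5. Among the genes numbered 11, Hoxa11 and Hoxd11 were expressed, and Hoxc11 had 1 count in all 6 libraries together. The lone expressed HOXC gene, Hoxc6, which acts in the thorax, had 39, 46 and 36 counts in GFP and 31, 45 and 25 in ORAI2 libraries.

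Levels of the anterior genes, numbered 1 to 3, differed widely. Hoxa3 stood at 8.181 ± 0.723 CPM in the GFP libraries and Hoxd3 at 2.859 ± 1.94 CPM (SD, n = 3), or 3.16 and 0.963 CPM per kb. Hoxd1 had 0 counts in every library, where 3 counts would be 0.162 CPM at the smallest total, and Hoxb2 had 3 counts in all. Hoxa2, a gene of the hindbrain, had a mean level of 1.069 ± 0.143 CPM in the GFP libraries (SD, n = 3) and missed the expression threshold in single libraries of both groups. The central HOXA genes Hoxa5, Hoxa6 and Hoxa7, which pattern the thoracic skeleton, lay between 8.097 and 9.624 CPM in the GFP libraries. Per kb they stood further apart, at 4.31, 11 and 4.05 CPM. This gap rests on the transcript lengths used, 1877, 874 and 2009 bases. On the deposited TPM scale the 3 genes overlapped, at 8.29 to 11.84, 8.37 to 10.49 and 8.21 to 11.42 TPM over the 6 columns. Whether Hoxa6 was the more abundant is therefore not settled.

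The design compares ORAI2 with GFP libraries. Among the called HOX genes the largest fold changes lay in the posterior part of HOXD. Hoxd10, Hoxd11, Hoxd12 and Hoxd13, 4 neighbours singled out after their values were seen, were all lower in the ORAI2 libraries, by 1.36-fold to 2.01-fold. In each of them the 3 ORAI2 libraries lay below the 3 GFP libraries. Hoxd9, the next gene of the cluster, had a log2 fold change of 0.02. Of the 4 posterior genes of HOXA, Hoxa10 was called lower, by 1.14-fold, and Hoxa9, Hoxa11 and Hoxa13 were not called (log2 fold changes 0.035, 0.055 and -0.48). Hoxa3, an anterior gene of HOXA, was also called lower, by 1.28-fold. Of the 38 HOX genes, 24 passed the low-count filter (edgeR's filterByExpr with a minimum count of 10). Of these 24, 6 were lower, 0 were higher and 18 did not pass an adjusted p of 0.05 in edgeR's quasi-likelihood test with Benjamini-Hochberg adjustment over 13764 genes. That is 25% called, against 42.9% of all genes tested, of which 22.1% were lower and 20.8% higher. At an unadjusted p under 0.05 the edgeR counts were again 6 lower and 0 higher, and DESeq2 called 4 lower and 0 higher after adjustment, with 6 and 0 before. In 5 of the 24 genes (20.8%) the groups did not overlap, against 52.9% of all genes tested. The median log2 fold change of the 24 genes was -0.05, and that of all genes tested -0.002.

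To show what stands upstream of the 4 HOXD genes that were lower, and of Hoxa11 as a posterior gene that did not pass, the 250 bases before their annotated starts are given 5′ to 3′ from RefSeq, build GRCm38.p6. Capitals mark matches on either strand to TATAAA, which the TATA-binding protein binds, to CCAAT, which NF-Y binds, and to GGGCGG, which SP1 binds. For Hoxd11 the start whose window overlaps no annotated exon is shown. The Hoxa11 window overlaps, on the other strand, exons of the antisense RNA Hoxa11os.
Hoxd13 (chr2:74667975-74668224, plus strand): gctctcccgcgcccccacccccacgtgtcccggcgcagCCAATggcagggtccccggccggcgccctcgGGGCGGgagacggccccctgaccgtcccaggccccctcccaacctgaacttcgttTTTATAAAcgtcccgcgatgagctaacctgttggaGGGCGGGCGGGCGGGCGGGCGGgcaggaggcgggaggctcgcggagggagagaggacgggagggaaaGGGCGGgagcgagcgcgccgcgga
Hoxd12 (chr2:74674763-74675012, plus strand): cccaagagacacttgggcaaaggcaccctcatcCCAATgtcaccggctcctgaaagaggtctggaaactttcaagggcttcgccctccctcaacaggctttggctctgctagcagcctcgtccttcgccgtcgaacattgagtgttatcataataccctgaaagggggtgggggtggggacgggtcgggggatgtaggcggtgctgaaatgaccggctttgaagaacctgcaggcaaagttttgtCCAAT
Hoxd11 (chr2:74682073-74682322, plus strand): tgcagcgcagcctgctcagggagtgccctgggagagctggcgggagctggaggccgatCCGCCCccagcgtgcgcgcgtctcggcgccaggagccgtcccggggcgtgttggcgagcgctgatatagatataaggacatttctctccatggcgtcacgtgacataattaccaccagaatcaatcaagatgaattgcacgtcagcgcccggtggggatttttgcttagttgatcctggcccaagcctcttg
Hoxd10 (chr2:74691641-74691890, plus strand): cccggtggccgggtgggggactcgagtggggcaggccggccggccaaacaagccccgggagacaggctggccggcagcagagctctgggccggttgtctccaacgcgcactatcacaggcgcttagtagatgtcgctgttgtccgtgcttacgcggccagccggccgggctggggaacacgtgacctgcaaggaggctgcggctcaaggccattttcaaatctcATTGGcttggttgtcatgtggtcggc
Hoxa11 (chr6:52245811-52246060, minus strand): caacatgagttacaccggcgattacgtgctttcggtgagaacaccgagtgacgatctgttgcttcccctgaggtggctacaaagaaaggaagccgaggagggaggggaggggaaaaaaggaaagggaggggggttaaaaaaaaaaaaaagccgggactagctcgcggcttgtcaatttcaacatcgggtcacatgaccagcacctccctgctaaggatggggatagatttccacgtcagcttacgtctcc
The Hoxd13 window held 2 overlapping TATAAA matches, 1 CCAAT and 7 GGGCGG, 5 of them in one overlapping run, with a GC content of 74.4% and 31 CG pairs. GC content was 55.6%, 60.4% and 65.6% in the windows of Hoxd12, Hoxd11 and Hoxd10, which held 10, 20 and 20 CG pairs, and it was 52% with 13 CG pairs in that of Hoxa11. Hoxd12 held 2 CCAAT matches, Hoxd10 held 1 CCAAT match, 21 bases before the start, and Hoxd11 held 1 GGGCGG match. Hoxa11 held none of these letters in its window. A further motif, GGAAA, the core that NFAT factors bind, was searched on both strands and is not capitalised: it occurred 1 time in the Hoxd13 window, 1 time in that of Hoxd12, 0 times in those of Hoxd11 and Hoxd10, and 3 times in that of Hoxa11. Over 32851 RefSeq promoters with windows of the same length, 12.4% held TATAAA, 33.8% CCAAT, 32.7% GGGCGG and 55.6% GGAAA. The median GC content was 52.4%, and the median number of CG pairs 6, so all 4 HOXD windows shown lay above both medians. The window of Hoxd9, which was not called and is not shown, also lay above both (65.2%, 13 CG pairs). The window of the other Hoxd11 start, not shown, lay below both (44.8%, 2 CG pairs). Matches to different motifs did not overlap each other in the 5 windows. None of the 4 motifs occurred in all 4 HOXD windows shown.

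Hoxd13 was measured most precisely. Its level was 161.0, 165.2 and 162.2 CPM in the GFP libraries and 111.8, 120.2 and 127.0 CPM in the ORAI2 libraries. Every GFP value lay above every ORAI2 value, and the gap between the groups was wider than the spread inside either. The gene was 1.36-fold lower (log2 fold change -0.45, SE 0.045, adjusted p = 6.23e-06, edgeR).

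Hoxd12, the neighbour of Hoxd13 and a gene of the distal limb, had the largest fold change of the 6 called HOX genes. The GFP libraries held 166, 162 and 149 counts of it and the ORAI2 libraries 64, 85 and 87. The means were 8.497 ± 0.421 and 4.230 ± 0.681 CPM (SD, n = 3), 2.01-fold lower in ORAI2 (log2 fold change -1.01, SE 0.13, adjusted p = 4.66e-05, edgeR). The groups did not overlap, and ORAI2 replicate 1 was the lowest library.

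Hoxd11, which with Hoxa11 shapes the forearm, stood at 61.08, 57.86 and 66.19 CPM in GFP and 39.12, 45.83 and 44.31 CPM in ORAI2 libraries. It was 1.44-fold lower (log2 fold change -0.52, SE 0.065, adjusted p = 3.69e-05, edgeR). Hoxd10, a gene of the lumbar spinal cord and limb, stood at 39.06, 43.74 and 48.86 CPM in GFP and 25.11, 29.73 and 28.66 CPM in ORAI2 libraries, 1.58-fold lower (log2 fold change -0.66, SE 0.081, adjusted p = 3.28e-05, edgeR). Both genes were separated completely between the groups, and ORAI2 replicate 1 again had the lowest level. In the annotation a transcript model that spans both genes, Gm28309, shares 10.8% of the exon bases of Hoxd11 and 5.7% of those of Hoxd10. A small part of the reads of each gene may therefore belong to that model.

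**Figure D2:**
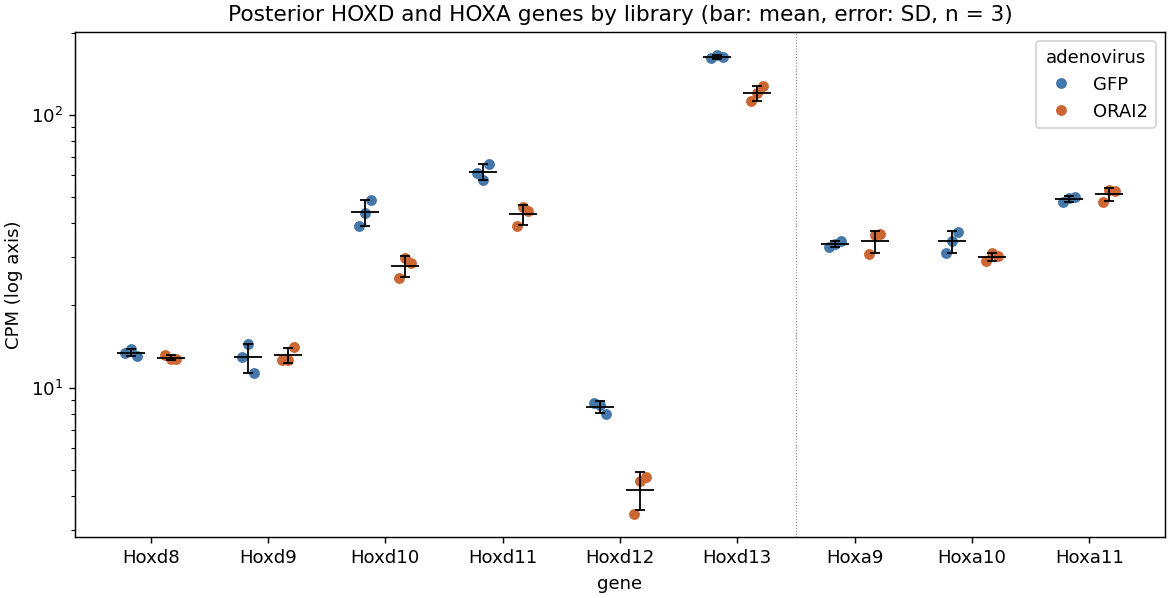
CPM of 6 HOXD and 3 HOXA genes in each of the 6 libraries, on a log axis; bars are means, error bars the SD over 3 libraries. Hoxd10 to Hoxd13 separate the GFP from the ORAI2 libraries, whereas the points of Hoxd8, Hoxd9, Hoxa9, Hoxa10 and Hoxa11 overlap between the groups.

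The rest of HOXD gave no call. Hoxd9, a gene of the upper limb and trunk, had GFP counts of 245, 270 and 210 and ORAI2 counts of 235, 236 and 261 (log2 fold change 0.02, SE 0.10, adjusted p = 0.898, edgeR). Hoxd8 was at 13.43 ± 0.36 and 12.87 ± 0.288 CPM (SD, n = 3; log2 fold change -0.065, SE 0.077). Hoxd4 had a log2 fold change of -0.14 (SE 0.125). Hoxd3 varied most inside a group, with 26, 40 and 94 counts in GFP and 55, 50 and 50 in ORAI2 libraries, and its log2 fold change of -0.040 had an SE of 0.347. Without GFP replicate 3, the library with 94 counts, Hoxd3 was higher in ORAI2 (log2 fold change 0.65, adjusted p = 0.042, edgeR), so its direction rested on that library. Hoxd3 and Hoxd4 share 388 exon bases on the same strand, and their levels could be split between them in counting.

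Summed over Hoxd10 to Hoxd13, the level was 269.9, 275.5 and 285.3 CPM in GFP and 179.5, 200.3 and 204.7 CPM in ORAI2 libraries. The other 34 HOX genes together gave 194.2, 206.8 and 215.1 CPM in GFP and 195.3, 207.4 and 206.1 CPM in ORAI2 libraries. The first sum was separated between the groups and the second overlapped. The 4 genes took 57.4% ± 0.634 of the HOX total in the GFP libraries and 48.9% ± 0.979 in the ORAI2 libraries (SD, n = 3). These 4 genes were singled out after their values were seen, so the sums are given as a description.

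Ratios of a pair of genes inside a library do not depend on the library's scaling, and 4 such ratios, chosen after the values were seen, were computed. Hoxd13 over Hoxa11 was 3.37, 3.34 and 3.25 in GFP and 2.34, 2.27 and 2.42 in ORAI2 libraries. Hoxd10 over Hoxd9 was 3.00, 3.03 and 4.32 in GFP and 1.98, 2.36 and 2.03 in ORAI2 libraries, and Hoxd10 over Hoxa10 was 1.25, 1.27 and 1.31 and then 0.865, 0.954 and 0.947. In each of these ratios the groups did not overlap. The exact two-sided permutation test over the 20 assignments of libraries gave p = 0.1 for each ratio, which is the smallest p that 3 libraries against 3 allow, and 0.1 after adjustment over the 4 ratios.

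In HOXA, 2 of 11 genes were called, both lower and neither called by DESeq2. That is 18.2% called, against 42.9% of all genes tested, with 22.1% of all genes lower. Hoxa3, which patterns the throat and neck, had GFP counts of 143, 149 and 167 and ORAI2 counts of 106, 138 and 113. The groups did not overlap, and the gene was 1.28-fold lower (log2 fold change -0.36, SE 0.120, adjusted p = 0.0288, edgeR; 0.0842 with DESeq2). Hoxa10, which acts in the upper leg, the lumbar spine and the uterus, was at 31.15, 34.55 and 37.29 CPM in GFP and 29.05, 31.17 and 30.28 CPM in ORAI2 libraries. Its lowest GFP library lay inside the ORAI2 range, and it was 1.14-fold lower (log2 fold change -0.19, SE 0.066, adjusted p = 0.034, edgeR; 0.08 with DESeq2). Both calls also ended when single libraries were left out. For Hoxa3 the adjusted p was 0.0555 or 0.096 without GFP replicate 2 or 3, and 0.132 or 0.091 without ORAI2 replicate 1 or 3. For Hoxa10 it was 0.0905 or 0.139 without GFP replicate 2 or 3, and 0.125, 0.0513 or 0.081 without ORAI2 replicate 1, 2 or 3.

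The neighbours of Hoxa10 gave no call. Hoxa11, which shapes the forearm and the uterus, was at 47.76, 49.41 and 49.94 CPM in GFP and 47.80, 52.83 and 52.57 CPM in ORAI2 libraries (log2 fold change 0.055, SE 0.051, adjusted p = 0.409, edgeR). Hoxa9, a gene of the trunk and of blood stem cells, was at 33.54 ± 0.902 and 34.43 ± 3.18 CPM (SD, n = 3; log2 fold change 0.035, SE 0.067). The central genes Hoxa4 to Hoxa7 had log2 fold changes between -0.123 and 0.161, none called. Of these, Hoxa5, which acts in the lung and thorax, had 126, 136 and 192 counts in GFP and 162, 166 and 162 in ORAI2 libraries. Its log2 fold change was 0.12 with all libraries and 0.32 without GFP replicate 3 (adjusted p = 0.0296, edgeR), so 2 HOX genes, Hoxa5 and Hoxd3, were called higher when that library was left out, against 0 with it. Hoxa13, with at most 15 counts in a library, had a log2 fold change of -0.48 with an SE of 0.372, a difference that this depth could not resolve.

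**Figure D3:**
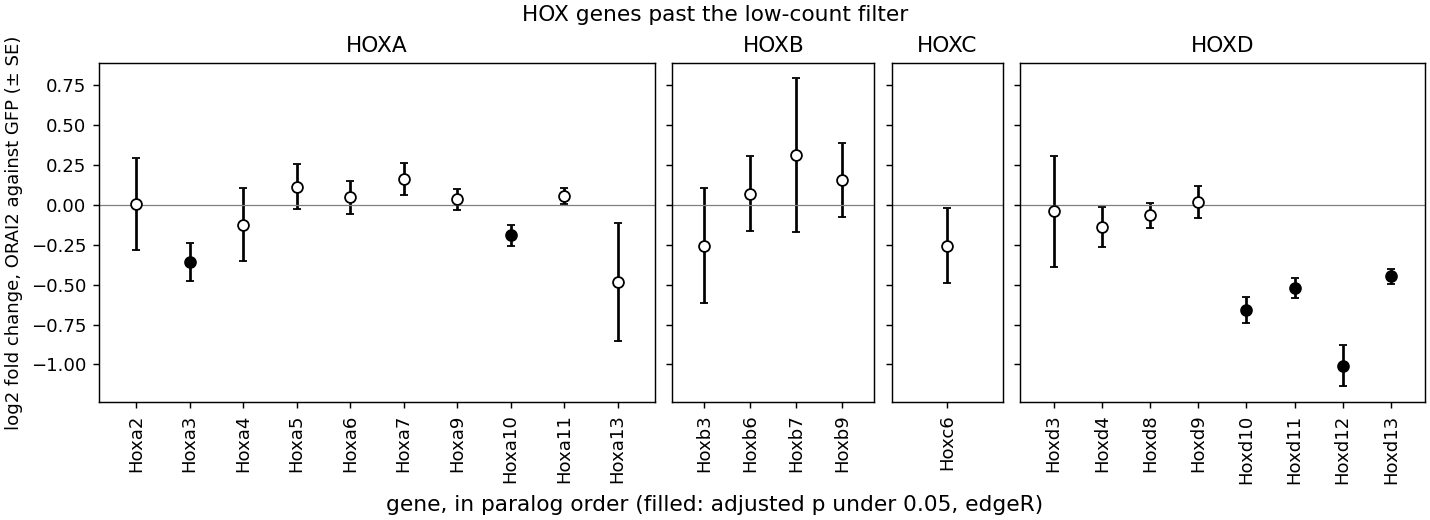
Log2 fold change of ORAI2 against GFP, with its standard error, for 23 HOX genes past the low-count filter, in paralog order within each cluster; filled points passed an adjusted p of 0.05 (edgeR). The 4 filled points of HOXD lie between -0.448 and -1.009, and the 2 of HOXA at -0.357 and -0.189.

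HOXB and HOXC gave no call. The 4 HOXB genes past the filter, Hoxb3, Hoxb6, Hoxb7 and Hoxb9, had log2 fold changes from -0.255 to 0.312 with standard errors from 0.231 to 0.482, and 0 of them had an unadjusted p under 0.05 in edgeR or DESeq2. Hoxb6 had 23, 20 and 20 counts in GFP and 21, 23 and 22 in ORAI2 libraries, and Hoxb9 had 34, 25 and 22 and then 30, 31 and 29. Hoxc6 had a log2 fold change of -0.255 (SE 0.236). The filter left out 5 HOXB genes that never exceeded 13 counts (Hoxb2, Hoxb4, Hoxb5, Hoxb8 and Hoxb13), 8 HOXC genes with at most 7 (Hoxc4, Hoxc5 and Hoxc8 to Hoxc13), and Hoxd1. In an edgeR fit without the filter, over 24650 genes, 13 of these 14 could be fitted and 0 were called (0 at an unadjusted p under 0.05), with adjusted p-values of at least 0.298. Hoxd1 had no count.

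Antisense and other non-coding RNAs of the clusters were examined beside the coding genes. Of 22 listed, 12 had a row, 3 passed the filter and 1 was called (33.3%, against 42.9% of all genes tested), Hoxa11os, which is transcribed from the opposite strand of Hoxa11. It had 420, 407 and 404 counts in GFP and 301, 352 and 357 in ORAI2 libraries, 1.21-fold lower (log2 fold change -0.28, SE 0.077, adjusted p = 0.0108, edgeR). Hoxa11os over Hoxa11, the last of the 4 ratios chosen after the values were seen, was 0.467, 0.440 and 0.435 in GFP libraries. It was 0.339, 0.356 and 0.367 in ORAI2 libraries, also without overlap. The exact two-sided permutation p was 0.1, the smallest that 3 libraries against 3 allow, so this ratio is a description only. The pair shares 800 exon bases, 35% of those of Hoxa11, and as the use of strand in counting is not given, reads of the shared part cannot be told apart. Hotairm1, a non-coding RNA of HOXA, had 44, 22 and 35 counts and then 34, 25 and 18 (adjusted p = 0.324, edgeR). Hotair, the antisense RNA of HOXC, had 1 count in all libraries together, and Hottip, at the posterior end of HOXA, at most 2 in a library.

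Genes that flank the clusters were mixed in direction. Of 17 measured neighbours, 3 were higher, 4 lower and 10 did not pass (41.2% called, against 42.9% of all genes), with a median log2 fold change that rounded to 0. Evx2, a homeobox gene that lies next to Hoxd13, was at 6.103, 4.759 and 5.758 CPM in GFP and 5.443, 4.920 and 4.534 CPM in ORAI2 libraries, with overlap (log2 fold change -0.16, SE 0.135, adjusted p = 0.365, edgeR). Lnpk, beyond Evx2, and Mtx2, at the anterior end of HOXD, had log2 fold changes of 0.105 and -0.100, neither called. Atf2, farther out in the region of HOXD, was 1.1-fold higher (adjusted p = 0.0154, edgeR). Atf2, Evx2, Lnpk and Mtx2 were chosen after their values were seen. The called neighbours with the smallest p were Skap2, 1.29-fold lower, and Snx10, 1.15-fold lower, beside HOXA, and Atp5g2 and Calcoco1, 1.25-fold and 1.17-fold lower, beside HOXC (adjusted p = 1.18e-04, 0.0065, 3.32e-04 and 0.00226, edgeR).

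HOX proteins bind DNA together with TALE homeodomain proteins of the PBX, MEIS and PREP families. Of 11 TALE genes, all measured, 3 were lower, 1 higher and 7 did not pass (36.4% called, against 42.9% of all genes tested; median log2 fold change -0.135). Pknox2, which encodes PREP2, had the largest change of the called ones: it was at 35.87, 36.63 and 36.38 CPM in GFP and 19.45, 19.95 and 21.97 CPM in ORAI2 libraries, 1.78-fold lower (log2 fold change -0.83, SE 0.062, adjusted p = 4.79e-07, edgeR). Pbx2 fell from 29.50 ± 2.03 to 23.00 ± 1.12 CPM (SD, n = 3). Tgif1, a repressor of the family, was the gene that rose, 1.24-fold to 151.7 ± 2.52 CPM. Meis1, a main partner of posterior HOX proteins, had a log2 fold change of -0.405 (SE 0.172, adjusted p = 0.0757), and Meis2 and Meis3 had log2 fold changes of -0.019 and 0.011.

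Retinoic acid and CDX factors switch HOX genes on in the embryo. Of 24 listed genes of this kind, 21 had a row and 16 passed the filter, of which 6 were lower, 0 higher and 10 did not pass (37.5% called, against 42.9% of all genes tested, with 22.1% lower and 20.8% higher; median log2 fold change -0.194). At an unadjusted p under 0.05 edgeR gave 6 lower and 0 higher, and DESeq2 called 5 lower and 0 higher. Crabp2, which carries retinoic acid to its nuclear receptors, was at 84.22, 82.14 and 74.58 CPM in GFP and 41.98, 40.91 and 38.32 CPM in ORAI2 libraries, 1.99-fold lower (log2 fold change -0.995, SE 0.058, adjusted p = 6.94e-08, edgeR). Rarb, a receptor that retinoic acid itself induces, was scarce and fell from 5.379 ± 0.364 to 2.046 ± 0.591 CPM, and Rarg, the most abundant receptor here by CPM, from 176.5 ± 1.48 to 145.0 ± 2.36 CPM (SD, n = 3). Dhrs3, a feedback enzyme of the pathway, was 1.39-fold lower (adjusted p = 4.97e-04, edgeR). The other lower members were Stra6, a retinol transporter, and Crabp1. Rara was at 22.84 ± 1.23 and 23.07 ± 1.89 CPM and was not called. The Cyp26 genes of the list, Cyp26a1, Cyp26b1 and Cyp26c1, were not called either. Their log2 fold changes were -0.078, 0.126 and -0.023 (adjusted p = 0.661, 0.536 and 0.954, edgeR). Cyp26a1 was at 7.965 ± 0.851 CPM in GFP and 7.562 ± 1.23 CPM in ORAI2 libraries (SD, n = 3). The retinoic acid synthesising enzymes Aldh1a1, Aldh1a2 and Aldh1a3 did not reach the filter, with no library above 9 counts, and Cdx1 had at most 3.

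Polycomb complexes keep HOX genes silent, and Trithorax complexes keep them active. Of 30 Polycomb subunits, all measured, 11 were higher, 5 lower and 14 did not pass (53.3% called, against 42.9% of all genes tested, with 20.8% higher and 22.1% lower; median log2 fold change 0.08). Those with the smallest p were Pcgf5, 1.29-fold lower, Phc2, 1.33-fold higher, Kdm2b, 1.29-fold higher, and Yaf2, 1.25-fold higher, all of PRC1 (adjusted p = 9.15e-06, 1.04e-05, 2.86e-05 and 2.65e-04, edgeR). Other lower members, given outside the rule for named genes, were Cbx7, Ring1 and Ezh1. Ezh2, the methyltransferase of PRC2, was at 78.11 ± 4.39 and 83.49 ± 4.76 CPM (SD, n = 3) and was not called. Other PRC2 genes, Phf19, Suz12, Rbbp7 and Mtf2, were higher, with log2 fold changes from 0.160 to 0.446. They too are given outside this rule. Of 16 Trithorax genes and demethylases, 6 were higher, 1 lower and 9 did not pass (43.8% called, against the same 42.9% of all genes tested; median log2 fold change 0.10). The lower one was Mllt3, a reader protein of the elongation complex, 1.28-fold (adjusted p = 9.53e-04, edgeR), and Wdr5, a core subunit, was 1.14-fold higher (adjusted p = 0.0021, edgeR). Kdm6a and Rbbp5 rose 1.09-fold each, calls that ended without single libraries. The adjusted p of Kdm6a was 0.0522 or 0.0509 without GFP replicate 2 or 3, 0.0544 without ORAI2 replicate 3 and 0.0652 with DESeq2. That of Rbbp5 was 0.085 or 0.0741 without GFP replicate 1 or 2 and 0.0561 without ORAI2 replicate 2.

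Other transcription factors that mark position in fibroblasts were examined beside the HOX genes. Of 36 listed, 31 had a row and 21 passed the filter, of which 8 were lower, 5 higher and 8 did not pass (61.9% called, against 42.9% of all genes tested; median log2 fold change -0.166). Tbx5, which specifies the forelimb, was at 23.99, 22.67 and 23.30 CPM in GFP and 13.85, 15.13 and 12.85 CPM in ORAI2 libraries, 1.68-fold lower (log2 fold change -0.745, SE 0.077, adjusted p = 8.04e-06, edgeR). Its hindlimb counterparts Tbx4 and Pitx1 had at most 1 and 2 counts in a library. Prrx1, a gene of limb mesenchyme, fell from 342.1 ± 4.93 to 259.8 ± 10.8 CPM and Tbx15 from 209.4 ± 9.66 to 166.6 ± 7.02 CPM (SD, n = 3; adjusted p = 5.09e-06 and 7.18e-05, edgeR). The 5 that rose, given outside the rule for named genes, were Twist2, Irx3, Irx5, Lhx9 and Lhx2, with log2 fold changes from 0.323 to 0.638.

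**Figure D4:**
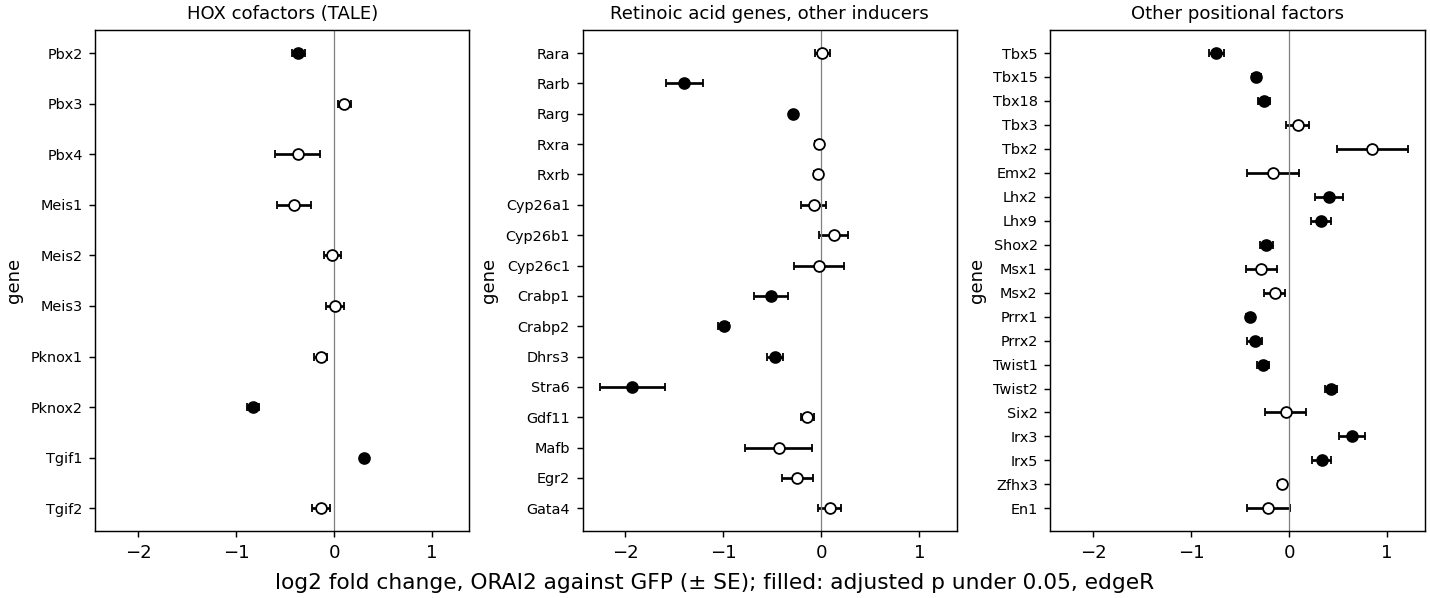
Log2 fold change of ORAI2 against GFP with its standard error for measured TALE cofactors, retinoic acid and other inducer genes, and other positional factors; filled points passed an adjusted p of 0.05 (edgeR). Among the inducers the 6 filled points all lie below 0, while the positional factors have 7 filled points below 0 and 5 above.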

How the data were processed

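RNA-seq libraries of 3 GFP and 3 ORAI2 samples were compared. Per the labels' protocols, mRNA was purified on oligo(dT) beads. The submitters' processing notes list HISAT2 2.0.4, the build GRCm39 and Salmon 1.4.0 without their roles. The authors deposited, per the file headers, 1 count column and 1 TPM column for each library. The sources used here do not state whether a count is a counted read or a rounded estimate, or whether strand was used. TPM values of the deposited columns disagreed with the count columns named alike and entered no test. Entrez numbers were matched to symbols with a RefSeq table of GRCm38.p6 (25631 of 26532, 96.6%). Transcript lengths and exon overlaps came from GENCODE annotation of GRCm38.

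Counts were tested with edgeR 4.0.16 in R 4.3.3 (glmQLFit and glmQLFTest, TMM, filterByExpr with a minimum count of 10, 13764 genes, Benjamini-Hochberg adjusted p under 0.05). Standard errors derive from the F statistic. Levels are CPM of the library total without TMM. Library pairs within a group differed beyond sampling noise (chi-square per gene from 2.54 to 4.5). Alternatives were other normalisations, other filters, DESeq2 1.42.0, a replicate block and each library left out. The test was checked on simulated data in which far fewer genes changed than were called here. That check does not cover data with so large a share of calls. HOX members and lists were chosen with earlier results of these data known. Some genes of these lists are not reported here. Named genes are the other HOX genes past the filter and, of each other list, the called members with the smallest p (up to 4, or 6 for TALE genes and non-coding RNAs). Further genes were named after their values were seen, among them genes given as values without a call.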

Additional observations from a re-analysis of the deposited data

How the results depend on the processing

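Hoxd10, Hoxd11, Hoxd12 and Hoxd13 stayed lower and called in all 13 alternatives, with log2 fold changes of -0.731 to -0.582, -0.567 to -0.451, -1.085 to -0.876 and -0.488 to -0.396, and adjusted p-values of at most 2.76e-04, 2.29e-04, 3.87e-04 and 7.90e-05. The number of HOX genes called lower was 4 to 6 and the number called higher 0 to 2 when 1 library was left out. The calls over all genes were then 4943 to 5661, against 5909. Between 20 and 21 HOX genes counted as expressed without 1 library, 23 at 0.5 CPM and 14 at 5 CPM. Of 290 values for 23 measured HOX genes, 261 kept direction and side of the threshold, 11 lost it (all for Hoxa3 and Hoxa10), 1 gained it with the same sign (Hoxa5) and 17 changed sign, 1 of which also gained it (Hoxd3). Of 312 values for the other named genes, 7 lost the threshold and 0 changed sign. Sign changes came only in HOX genes that were not called with all 6 libraries, among them Hoxd3. Leaving out 1 library gave log2 fold changes of -0.267 to 0.208 for Hoxa2, -0.315 to 0.031 for Hoxa4, -0.028 to 0.115 for Hoxa6, -0.003 to 0.115 for Hoxa9, -0.532 to 0.024 for Hoxb3, -0.085 to 0.778 for Hoxb7, -0.368 to 0.649 for Hoxd3, -0.259 to 0.011 for Hoxd4 and -0.074 to 0.105 for Hoxd9. With upper quartile scaling Hoxa2 was at -0.015 and Hoxd9 at -0.001. With the replicate block Hoxa2 was at -0.006 and Hoxd3 at 0.032. The cause of these changes was not tested. The replicate block called 6246 genes and the same 6 HOX genes. Libraries of the same number correlated at 0.136, 0.073 and 0.126 in their deviations from the group means, each higher than with any other number. The labels do not say that the numbers pair the libraries, so the main test took them as names only. Whether the libraries were paired is not settled. Genes with under about 20 counts a library, most of HOXB and HOXC, are limited by depth.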

Other observations

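The authors' deposited TPM columns, which entered no test, listed the 4 posterior HOXD genes lower in the columns named ORAI2. Hoxd13 was listed at 131.93, 130.24 and 120.79 TPM in the columns named GFP and at 94.26, 100.54 and 73.97 TPM in those named ORAI2. Hoxd10 was listed at 36.5, 41.1 and 36.12 TPM and then at 24.09, 25.3 and 15.44 TPM, Hoxd11 at 30.72, 35.35 and 30.22 TPM and then at 23.28, 22.71 and 15.19 TPM, and Hoxd12 at 7.03, 6.54 and 9.68 TPM and then at 3.63, 3.78 and 4.3 TPM. The columns named GFP-3 and ORAI2-3 both departed from the others of their name. GFP-3 listed Rarb at 17.25 TPM, against 3.64 and 3.34 TPM in GFP-1 and GFP-2, and Cyp26a1 at 1.13 TPM, against 11.37 and 9.3 TPM. ORAI2-3 listed Orai2 at 36.33 TPM, near the 24.83 to 38.19 TPM of the GFP columns, and Hoxa11 at 21.21 TPM against 44.96 to 47.45 TPM in the other 5. Orai2 had 45140 counts in ORAI2 replicate 3. Which library each TPM column holds could not be settled, so these values are no check of the counts.

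Of the 14 HOX genes under the filter, Hoxb4 and Hoxb5 did not overlap between the groups in CPM. Among all genes past the filter, 52.9% did not overlap. Hoxb4 had 6, 5 and 4 counts in GFP and 8, 7 and 9 in ORAI2 libraries, and Hoxb5 had 4, 4 and 5 and then 5, 11 and 7. For Hoxb5 the highest GFP and the lowest ORAI2 library had equal counts, so only library scaling separated them (0.2691 and 0.2695 CPM). Hoxaas3, an antisense RNA of HOXA also under the filter, had 14, 10 and 13 counts in GFP and 7, 7 and 5 in ORAI2 libraries. In the edgeR fit without the filter none of the 3 was called (adjusted p = 0.407, 0.349 and 0.115).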
